A study of Mus musculus with 24 samples.

Results

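The peroxisome proliferator-activated receptors (PPARs), the retinoid X receptors (RXRs) they pair with and 3 of their coactivators were followed in mice that lack PPARα. The 9 genes were Ppara, Ppard, Pparg, Rxra, Rxrb, Rxrg, Ppargc1a, Ppargc1b and Lpin1. They were found by name in the array's probe-to-gene table, which gave 20 of the 45101 probe sets of the array. Of these, 19 belonged to a single gene: 3 to Ppara, 2 to Ppard, 1 to Pparg, 3 to Rxra, 1 to Rxrb, 1 to Rxrg, 5 to Ppargc1a, 1 to Ppargc1b and 2 to Lpin1. The last, 1447902_at, was assigned to both Ppard and 1810013A23Rik and is given apart. The study asked how the loss of PPARα changes gene expression in liver and heart of each sex. The SV129 mice were wild type (WT) or PPARα knock-out (KO), aged 10 to 12 weeks and killed at zeitgeber time 14, with 12 mice per sex and genotype. RNA of 4 mice was pooled for an array, and 3 pools per group made 24 arrays over 8 groups (2 tissues, both sexes, both genotypes). Pools 1 to 3 were WT males, 4 to 6 KO males, 7 to 9 WT females and 10 to 12 KO females in each tissue. The allele and the deleted part of Ppara are not named in the labels.

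PPARs are nuclear receptors that bind fatty acids and their derivatives, pair with an RXR on DNA and raise the transcription of genes of lipid metabolism. PPARα drives fatty acid oxidation in liver and heart, PPARδ acts in many tissues including muscle, and PPARγ drives the formation of adipocytes. The bound receptor pair recruits coactivators. Among these are PGC-1α (Ppargc1a) and PGC-1β (Ppargc1b), which raise mitochondrial metabolism, and lipin 1 (Lpin1), a phosphatidate phosphatase that also works in the nucleus with PGC-1α and PPARα.

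Values are log2 intensities, ± gives the SD over 3 pools, and differences are KO minus WT unless stated. A probe set passed when its adjusted p in limma was under 0.05, with Benjamini-Hochberg adjustment over all 45037 probe sets that were not controls. Array medians spanned 2.43 to 2.49 for the livers and 3.01 to 3.07 for the hearts, and the tissues had been normalized apart as far as the sorted values show, so levels were not compared between them. Precision is limited by the small number of arrays. The 9 measured hepatocyte markers and the 10 cardiomyocyte markers stood high in their own tissue, with a median over the markers of at least 12.3 in every liver pool and 12.9 in every heart pool. Heart pool 4, labelled KO male, had an Xist level of 6.62, where the other 5 male hearts reached at most 3.12 and the female hearts started at 7.32. Its Eif2s3y level, 4.49, was the lowest of the male hearts, and it held the highest summed signals of the 12 skeletal muscle markers (304 against at most 149) and of the 6 white adipocyte markers (369 against at most 325). Heart pool 10, labelled KO female, read 3.34 for Eif2s3y, where no other female heart exceeded 2.50, and had a summed hepatocyte signal of 375 against at most 113 in the other hearts. Results in KO heart are therefore also given without these pools for Ppara, for Rxra in males and for the counts of PPAR targets.

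Ppara fell in KO pools in all 3 probe sets, both tissues and both sexes, yet it kept a clear signal. In liver, probe set 1449051_at read 8.67, 8.31 and 8.48 in the WT males and 7.50, 7.34 and 7.27 in the KO males. In females it read 8.69, 8.24 and 8.48 in WT and 7.39, 7.28 and 7.60 in KO. All 6 WT livers lay above all 6 KO livers, and the sexes overlapped within each genotype. In heart the WT pools read 7.07, 6.92 and 6.73 in males and 7.06, 7.27 and 6.94 in females. The KO hearts read 6.13, 5.38 and 5.45 in males and 5.74, 5.28 and 5.66 in females. The highest of them was pool 4, at 6.13, and it still lay 0.596 below the lowest WT male heart. Since each array holds bulk tissue, fewer cells of a type and less RNA per cell cannot be told apart in these values.

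The differences by this probe set were −1.05 in female liver (SE 0.13, adjusted p = 0.00136 in limma), −1.12 in male liver (adjusted p = 0.000938), −1.53 in female heart (adjusted p = 0.000252) and −1.25 in male heart (adjusted p = 0.0017). Probe set 1439675_at gave −0.84, −0.90, −1.51 and −1.06 in the same order. Probe set 1457721_at gave −1.11, −1.25, −1.10 and −1.08. All 12 values passed in limma, with the highest adjusted p, 0.00938, at 1439675_at in female liver. That value did not pass when the 6 compared arrays were fitted alone (adjusted p = 0.218), and in male liver 1439675_at did not pass without pool 3 (adjusted p = 0.0522). Without heart pool 4 the male heart differences were −1.49, −1.01 and −1.12 for 1449051_at, 1439675_at and 1457721_at, and without heart pool 10 the female ones were −1.62, −1.43 and −1.01, all of which passed. On the linear scale the KO kept between 34.7% (1449051_at, female heart) and 55.9% (1439675_at, female liver) of the WT signal. In KO hearts and livers alike the 3 probe sets ranked above at least 81.7% of the probe sets of the same array. Whether these probe sets lie inside or outside the deletion was not analysed here, so the signal left says nothing of how much receptor was left.

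**Figure D1:**
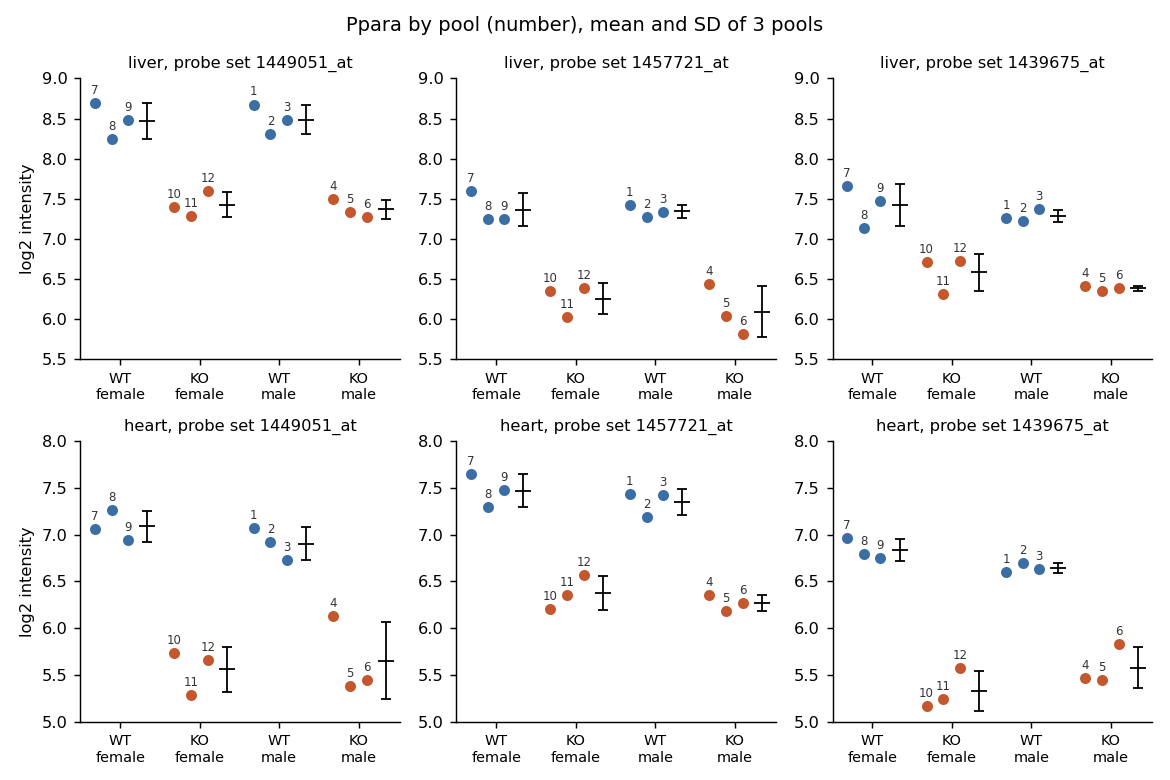
Log2 intensity of the 3 Ppara probe sets in liver (upper row) and heart (lower row), by group, with each point a pool of 4 mice named by its number and each bar the mean and SD of 3 pools. In every panel the 6 WT pools lie above the 6 KO pools of the same tissue, and heart pool 4 is the highest KO heart in 1449051_at at 6.13.

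The 3 probe sets followed one another within groups more closely in liver than in heart. Over the 12 pools of liver, the deviations from the group means correlated at r = 0.733 (1439675_at with 1449051_at), 0.608 (1439675_at with 1457721_at) and 0.77 (1449051_at with 1457721_at). In heart the same values were −0.148, 0.475 and 0.063. These are descriptions over probe sets of the same arrays. The fall in Ppara did not differ between the sexes in a way that passed: the female minus male difference of the KO effects ran from 0.06 to 0.14 over the probe sets for liver, and from −0.45 to −0.01 for heart. Its largest size, −0.45 at 1439675_at in heart (95% interval −0.81 to −0.09), had an unadjusted p of 0.018 and an adjusted p of 0.986 in limma. The liver minus heart difference of the KO effects was largest for the same probe set in females, at 0.67 (95% interval 0.29 to 1.05), with an adjusted p of 0.178. None of the 19 member probe sets passed in limma for sex by genotype in heart (1 with an unadjusted p under 0.05, and 0% of all probe sets passing), nor for tissue by genotype in females (3 with an unadjusted p under 0.05, 0.4% of all passing) or in males (1, and 0.271%). WT females and males did not differ in Ppara by the test in either tissue, although the WT female hearts (6.97, 6.80 and 6.75) all lay above the WT male hearts (6.60, 6.70 and 6.63) by 1439675_at, a difference of 0.19 (adjusted p = 0.935). In heart none of the 19 passed between WT sexes (1 with an unadjusted p under 0.05, 0.0178% of all passing), and 2 of 19 had pools that did not overlap, against 10.7% of all.

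Beyond Ppara, 1 of the 16 other single-gene probe sets passed in the 4 comparisons of KO with WT by tissue and sex: Pparg, in male liver. In all, 3 of 19 member probe sets were lower in female liver, 3 were lower and 1 was higher in male liver, and 3 were lower in each sex of heart. Over all probe sets tested, 0.28% were lower in female liver, 0.258% were lower and 0.0866% higher in male liver, and 0.246% and 0.229% were lower in female and male heart. In either direction the shares were 0.48%, 0.344%, 0.311% and 0.275%. Of the 16, none passed in female liver, female heart and male heart in limma, where 3, 1 and 1 had an unadjusted p under 0.05. Of all 45037 probe sets, 2564 in female liver, 3834 in male liver, 2850 in female heart and 2613 in male heart had such a p. The 16 differences ran from −0.94 to 0.20 in female liver, from −0.21 to 0.67 in male liver, from −0.24 to 0.29 in female heart and from −0.18 to 0.22 in male heart. Their medians were −0.12, 0.01, −0.07 and −0.01, beside medians over all probe sets of between −0.01 and 0.01. KO and WT pools did not overlap in 3, 1, 2 and 1 of the 16, against 9.66%, 15.6%, 11.5% and 10.6% of all probe sets. With the sexes averaged, Pparg was again the 1 of these 16 to pass in liver (0.797% of all probe sets, 0.302% upward), and none passed in heart (0.528%, with 1 of the 16 at an unadjusted p under 0.05).

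**Figure D2:**
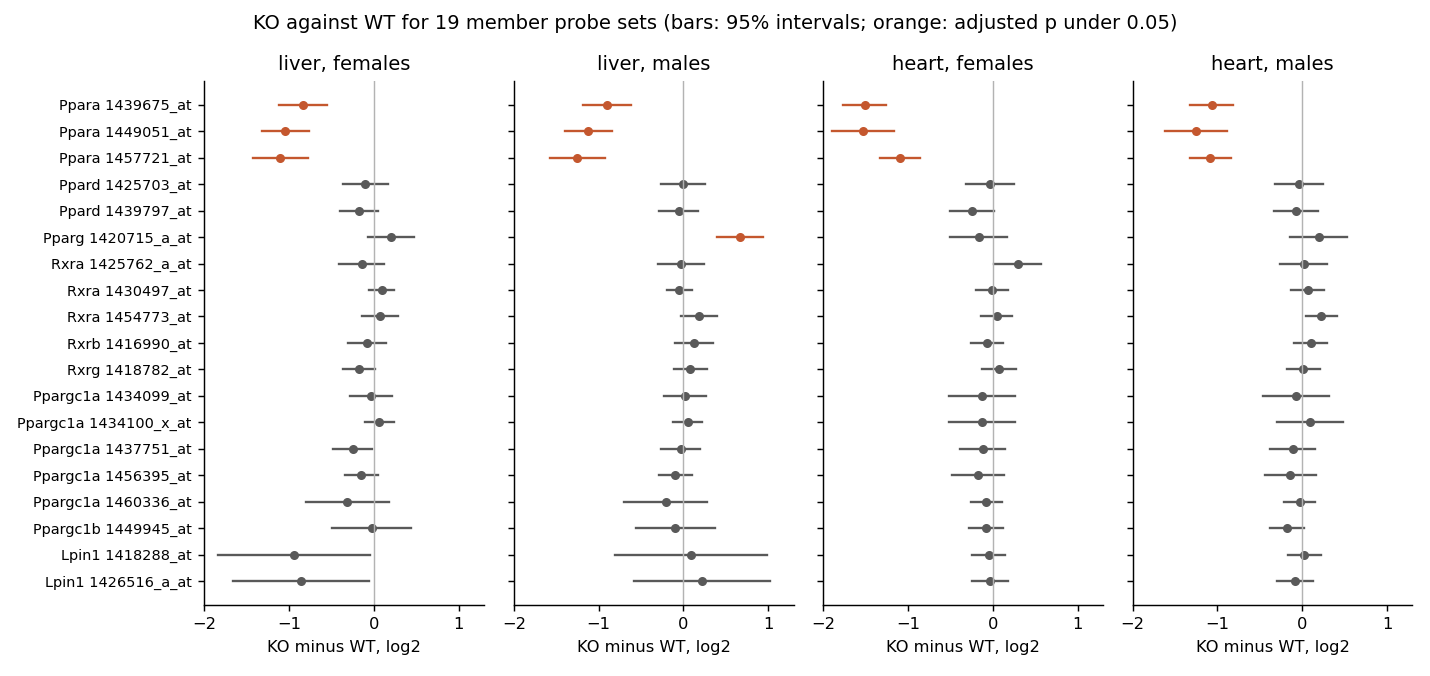
Difference between KO and WT in log2 units for the 19 single-gene probe sets, by tissue and sex, with 95% intervals from limma over the 12 arrays of a tissue. Orange marks an adjusted p under 0.05: the 3 Ppara probe sets in every panel, between −1.53 and −0.84, and Pparg in male liver at 0.67. The widest intervals are those of Lpin1 in liver.

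Pparg was higher in KO than in WT male liver, at a low level. Its only probe set, 1420715_a_at, read 2.74, 2.82 and 2.89 in the WT males and 3.22, 3.67 and 3.57 in the KO males. All 3 KO pools lay above all 3 WT pools. The difference was 0.67 (SE 0.13, adjusted p = 0.0434 in limma). The WT male values lay above the array medians, and the lowest percentile of Pparg over the 12 livers was 65.8. They overlap those of a single adipocyte gene, Adig, in the 12 livers (2.39 to 2.85), which was not itself shown to be absent. The WT male values are thus not shown to be above background, and if they are not, the difference may understate the change. The WT females read 3.54, 3.36 and 3.66 and the KO females 3.67, 3.55 and 3.92, which overlap. Their difference was 0.20 (95% interval −0.07 to 0.47) and had an adjusted p that rounds to 1. The difference between the sexes in the KO effect was −0.47 (95% interval −0.86 to −0.09) and did not pass (unadjusted p = 0.0203, adjusted p = 0.986), where 0.0311% of all probe sets did. In the order of the liver groups, KO females (3.72 ± 0.19), WT females (3.52 ± 0.15) and KO males (3.49 ± 0.24) overlapped with their neighbours, and only WT males (2.82 ± 0.07) stood below.

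WT females thus had more Pparg signal than WT males in liver, by 0.70 (SE 0.13, adjusted p = 0.0138 in limma), the only member probe set of 19 to pass in that comparison (1.17% of all probe sets, 0.508% higher in females). Pools of the WT sexes did not overlap in 3 of 19, Pparg, Rxrg and Ppard 1439797_at, against 18.5% of all. Both Pparg calls rest on few pools. The male liver call passed in 6 of 13 alternatives, with differences from 0.58 to 0.81 and adjusted p from 0.0145 to 0.206, and was lost without any 1 of pools 1, 2, 3, 5 and 6 and also with repeated quantile normalization or with array medians set equal. The call between WT sexes was lost without pool 1, 2, 7 or 9 (adjusted p from 0.0515 to 0.0749). With the sexes averaged, the KO effect in liver was 0.44 (adjusted p = 0.0411) and passed in 9 of 19 alternatives, being lost with repeated quantile normalization and without pool 1, 2, 3, 5, 6, 7, 8, 10 or 12. The summed signal of the 6 white adipocyte markers in male liver was 28.8 to 30.4 in WT and 31.9 to 34.1 in KO, none of the 6 passed, and Adipoq, the adipocyte hormone adiponectin, read between 1.91 and 2.27 in all livers. The part of these cells in the Pparg difference was not tested.

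In heart Pparg passed in no comparison. The WT males read 4.19, 4.11 and 4.61, the KO males 4.84, 4.12 and 4.52, the WT females 4.59, 4.55 and 4.43 and the KO females 4.51, 4.19 and 4.37. The groups overlapped, and the differences were −0.17 in females (95% interval −0.50 to 0.17) and 0.19 in males (95% interval −0.15 to 0.53), with adjusted p of 0.955 and 0.957. The highest KO male value, 4.84, was that of pool 4, whose label check is given above. The other KO males, 4.12 and 4.52, lay within the WT male range of 4.11 to 4.61. The heart values of Pparg followed the summed adipocyte signal, which is mainly that of Adipoq. Adipoq had a heart median of 7.09, and the other markers had medians from 2.54 (Lep) to 4.49 (Retn). Over the 12 heart pools, Pparg correlated with the log2 of the summed signal of the 6 white adipocyte markers at Pearson's r = 0.866 (permutation p = 0.00029, adjusted over 4 relations 0.0012) and Spearman's rho = 0.825 (permutation p = 0.0014, adjusted 0.0058). Group means were not taken out here, so differences between the groups of sex and genotype enter these values and their p. Without pools 11 and 5, the farthest from the median of the sum, r was 0.838, with pool 4 kept. The sum ran from 74.3 in pool 11 to 369 in pool 4, and Adipoq itself ran from 4.55 to 8.24. The part of these cells in the heart values was not tested. The same relation in liver gave r = 0.503 over a range of 28.8 to 34.1 (permutation p = 0.10). The liver medians of these markers, 2.115 (Adipoq) to 2.697 (Adig), lay near the array medians of 2.43 to 2.49.

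**Figure D3:**
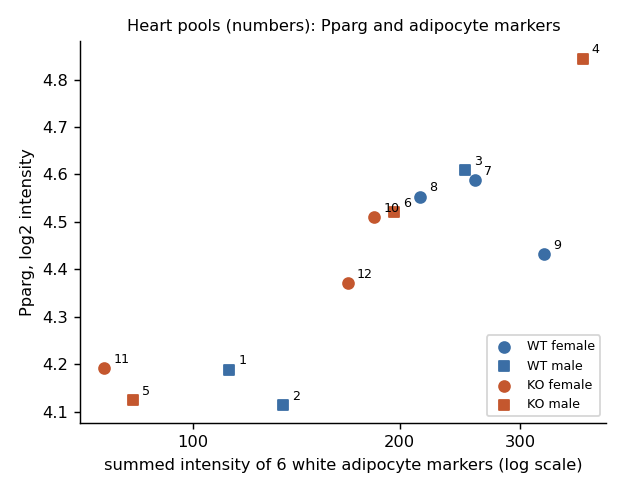
Pparg (1420715_a_at, log2 intensity) against the summed linear intensity of 6 white adipocyte markers (log scale) in the 12 heart pools, with colours for genotype, shapes for sex and numbers for pools. Pool 4 has the highest Pparg level, 4.84, and the highest sum, 369, and pool 11 has the lowest sum, 74.3, at a Pparg level of 4.19.

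For Pparg 3 starts are listed in RefSeq (assembly GRCm38.p6). They are shown because Pparg was the only other member that passed, and its 1 probe set does not say from which start the signal came. Each sequence runs from 250 bases before to 50 bases after the start on the forward strand, with capitals at the nuclear receptor half-site AGGTCA, searched on both strands. The windows are chr6:115360894-115361193, chr6:115362099-115362398 and chr6:115421816-115422115.
Pparg start 1: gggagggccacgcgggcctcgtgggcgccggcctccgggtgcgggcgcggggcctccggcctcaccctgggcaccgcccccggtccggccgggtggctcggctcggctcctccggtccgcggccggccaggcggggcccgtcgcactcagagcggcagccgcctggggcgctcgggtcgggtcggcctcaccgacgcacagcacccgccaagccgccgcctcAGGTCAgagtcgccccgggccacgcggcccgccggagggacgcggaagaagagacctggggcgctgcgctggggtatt
Pparg start 2: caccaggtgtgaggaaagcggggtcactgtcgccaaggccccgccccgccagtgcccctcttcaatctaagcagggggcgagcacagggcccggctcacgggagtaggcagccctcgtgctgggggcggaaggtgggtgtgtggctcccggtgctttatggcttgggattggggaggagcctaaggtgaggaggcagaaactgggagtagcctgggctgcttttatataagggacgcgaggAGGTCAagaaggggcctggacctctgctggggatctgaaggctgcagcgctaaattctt
Pparg start 3: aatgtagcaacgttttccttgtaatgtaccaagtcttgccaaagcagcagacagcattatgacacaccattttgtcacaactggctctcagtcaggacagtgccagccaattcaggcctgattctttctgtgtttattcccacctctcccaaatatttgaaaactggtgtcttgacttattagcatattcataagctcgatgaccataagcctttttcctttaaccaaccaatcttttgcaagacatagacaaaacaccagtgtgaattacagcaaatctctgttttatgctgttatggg
The first and second windows each held 1 half-site and the third held none. Over all 32851 promoters of the table, 16.3% held it on either strand. The full PPAR element, searched on both strands as 2 copies of AGGTCA in the same direction with 1 base of any kind between them, was in none of the 13 listed starts of the 8 members that were searched, and in 0.0396% of all promoters. A match here is a match of letters and not a measured binding site.

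Ppard, the third PPAR, passed in no comparison. Probe set 1439797_at spanned 2.43 to 3.09 over the livers and 4.52 to 5.07 over the hearts. Its differences were −0.18 in female liver, −0.06 in male liver, −0.24 in female heart and −0.07 in male heart, with adjusted p of at least 0.824 and 95% intervals that reached no lower than −0.50 and no higher than 0.19. KO and WT pools did not overlap in female liver (2.86, 2.88 and 2.81 in KO and 3.09, 2.99 and 3.00 in WT) or in female heart (4.63, 4.52 and 4.72 in KO and 4.93, 4.90 and 4.77 in WT). The WT female livers also lay above the 3 WT male livers, by 0.28 (adjusted p = 0.337). The other probe set, 1425703_at, lay near the array median in both tissues and its differences were between −0.10 and −0.01. The shared probe set 1447902_at was 0.24 higher in KO female and 0.22 higher in KO male heart (adjusted p = 0.824 and 0.912), and its signal cannot be told apart from that of 1810013A23Rik.

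The RXR genes, whose products are the obligate partners of all 3 PPARs, did not pass in any comparison of KO with WT. Rxra, the main RXR of liver, was best measured by 1454773_at, which spanned 7.17 to 7.60 over the livers and 6.05 to 6.55 over the hearts. Its largest difference was in male heart, where the WT pools read 6.43, 6.22 and 6.23 and the KO pools 6.55, 6.53 and 6.47. These pools did not overlap, and the difference was 0.22 (95% interval 0.04 to 0.41, unadjusted p = 0.0207, adjusted p = 0.762). Without pool 4 it was 0.21. In male liver the difference was 0.19, in female liver 0.07 and in female heart 0.05. Probe set 1425762_a_at gave its largest difference elsewhere, in female heart, at 0.29 (95% interval 0.01 to 0.57, adjusted p = 0.759), from WT pools of 3.14, 3.54 and 3.73 and KO pools of 3.79, 3.64 and 3.87. The probe sets of Rxra therefore did not point to the same tissue and sex. The third, 1430497_at, lay below the array median on all 24 arrays. Rxrb spanned 4.19 to 4.70 over the livers and 6.12 to 6.40 over the hearts, with differences from −0.08 to 0.13.

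Rxrg, the RXR typical of muscle, ranked far higher in heart than in liver. In heart it lay between 6.28 and 6.69, with overlapping groups and differences of 0.07 in females and 0.01 in males. In liver the WT females read 3.03, 3.02 and 2.89, the KO females 2.86, 2.79 and 2.75, the WT males 2.44, 2.57 and 2.74 and the KO males 2.70, 2.54 and 2.76. The WT females stood above every other liver pool. Their difference from the WT males was 0.40 (95% interval 0.20 to 0.59, adjusted p = 0.056). It fell just short of the threshold and passed in 2 of 13 alternatives, with array weights and without male pool 3 (adjusted p = 0.038 in both). The lowest WT male value, 2.44, lay at the liver array medians of 2.43 to 2.49, so the male values are not shown to be above background. The KO effect was −0.18 in females (95% interval −0.37 to 0.02, adjusted p = 0.937) and 0.08 in males (95% interval −0.11 to 0.27, adjusted p = 0.851). In heart, Rxrg and the summed skeletal muscle markers had r = 0.503, which went to −0.164 without pools 4 and 9.

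The coactivator PGC-1α was one of the higher signals of the heart and a dim one in liver. Its brightest probe set, 1460336_at, lay between 8.33 and 8.71 in heart, above at least 97.0% of the probe sets of each array, and between 2.59 and 3.82 in liver. The heart groups were 8.49 ± 0.07 in WT males, 8.47 ± 0.13 in KO males, 8.68 ± 0.02 in WT females and 8.60 ± 0.09 in KO females. All 3 WT female hearts lay above all 3 WT male hearts, by 0.19 (unadjusted p = 0.0469, adjusted p = 0.869). Differences between genotypes were −0.08 in females (95% interval −0.26 to 0.11) and −0.03 in males (95% interval −0.21 to 0.16). In liver the WT females read 3.82, 3.34 and 3.16 and the KO females 3.49, 3.28 and 2.60, with a difference of −0.32 (95% interval −0.80 to 0.17). The male livers gave −0.21 (95% interval −0.69 to 0.28). Over the 5 probe sets, the differences between genotypes ran from −0.32 to 0.06 for liver, and for heart from −0.18 to 0.09, and none passed. The smallest adjusted p, 0.802, belonged to 1437751_at in female liver, at −0.25 (95% interval −0.48 to −0.02). In liver 1434100_x_at lay below the array median on all 12 arrays and 1434099_at, 1437751_at and 1456395_at on some, so a change of these transcripts in liver would be measured poorly.

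PGC-1β, the relative of PGC-1α, spanned 7.61 to 8.04 over the hearts and 3.66 to 4.87 over the livers. Its heart differences were −0.08 in females (95% interval −0.28 to 0.12) and −0.18 in males (95% interval −0.38 to 0.03, adjusted p = 0.909). In liver they were −0.03 in females (95% interval −0.49 to 0.44) and −0.09 in males (95% interval −0.56 to 0.37). WT females had 0.48 less than WT males in liver (unadjusted p = 0.045, adjusted p = 0.442), with pools of 4.58, 3.86 and 3.66 against 4.87, 4.36 and 4.30, which overlap.

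Lpin1 was the member with the widest spread between pools in liver. Probe set 1418288_at read 8.54, 8.87 and 8.23 in the WT males, 9.01, 8.33 and 8.57 in the KO males, 9.002, 8.38 and 7.75 in the WT females and 8.29, 7.69 and 6.34 in the KO females. The 4 groups overlapped with their neighbours, and the lowest value, 6.34 in pool 12, lay 1.35 below the next KO female. Probe set 1426516_a_at read 8.29, 7.55 and 6.52 in the KO females and 8.88, 8.27 and 7.79 in the WT females, and the deviations of the 2 probe sets correlated at r = 0.985 over the 12 livers. The differences in female liver were −0.94 (95% interval −1.83 to −0.04) and −0.86 (95% interval −1.67 to −0.06), with unadjusted p of 0.041 and 0.0373 and adjusted p of 0.838 and 0.814. Without pool 12 they were −0.39 and −0.40. Male liver gave 0.09 and 0.22, with 95% intervals from −0.80 to 1.02. Liver pool 12 also had the lowest mean correlation with its sister pools, 0.988, where the next lowest of the 12 livers was 0.990. Its 3′ minus 5′ difference of the Gapdh control probe sets, a measure that is larger in more degraded RNA, was 0.292. This was the lowest of the livers, where the others had 0.446 to 0.717. The same measure for Actb was 1.35 to 1.66 in the KO female livers, with pool 12 the lowest of them, and 1.11 to 1.47 in the WT female livers. The part of RNA quality in the Lpin1 values was not tested. Lpin1 spread little in heart: 1418288_at lay between 7.93 and 8.24 and 1426516_a_at between 7.67 and 8.15, and no difference was larger than 0.09 in size.

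Lpin1 and the brightest probe set of PGC-1α varied together between liver pools of the same group. Other Ppargc1a probe sets were not set against Lpin1. In liver the deviations of 1460336_at correlated at r = 0.869 with 1434099_at. With 1434100_x_at, 1437751_at and 1456395_at they correlated at only 0.343, 0.106 and −0.091. The deviations of Lpin1 1418288_at and Ppargc1a 1460336_at from the group means correlated over the 12 livers at Pearson's r = 0.873 (permutation p = 0.00023, adjusted over 36 pairs 0.0083). Spearman's rho was 0.797 (permutation p = 0.0031, adjusted 0.11), and r was 0.759 without the 2 pools farthest from the median of Lpin1. It was the only one of the 36 pairs of members in liver whose adjusted p for r was under 0.05, and none was in heart, where this pair had r = 0.506 (permutation p = 0.094). Lpin1 had r = 0.684 with PGC-1β and r = −0.643 with Pparg in liver, and neither passed (adjusted p = 0.14 for both). The pools of these pairs share their arrays and their normalization, and the 4 group means were taken out, which these p do not count.

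The promoters of Ppargc1a and Lpin1 are shown because 1 probe set of each varied together. They are RefSeq windows of GRCm38.p6 on the reverse strand, read 5′ to 3′, chr5:51567676-51567975 for Ppargc1a and chr12:16610917-16611216 for Lpin1, with capitals at matches to the motifs searched on both strands: AGGTCA, the PPAR element made of 2 such copies, the E-box CACGTG and the cAMP response element TGACGTCA.
Ppargc1a: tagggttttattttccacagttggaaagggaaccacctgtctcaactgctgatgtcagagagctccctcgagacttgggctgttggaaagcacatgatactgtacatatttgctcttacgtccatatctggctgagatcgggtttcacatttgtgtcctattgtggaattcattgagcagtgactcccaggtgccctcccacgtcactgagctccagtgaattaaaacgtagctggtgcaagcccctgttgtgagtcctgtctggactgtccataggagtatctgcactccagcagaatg
Lpin1: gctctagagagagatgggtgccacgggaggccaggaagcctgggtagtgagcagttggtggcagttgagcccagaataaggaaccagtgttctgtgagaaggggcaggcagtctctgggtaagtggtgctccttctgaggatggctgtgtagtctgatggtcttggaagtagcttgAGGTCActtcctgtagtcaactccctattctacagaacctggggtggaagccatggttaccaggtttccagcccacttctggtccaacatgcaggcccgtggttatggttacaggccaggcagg
The Lpin1 window held 1 half-site AGGTCA, and no other match to the 4 motifs was found in either. The E-box was in 7.15% and TGACGTCA in 1.79% of all promoters of the table.

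**Figure D4:**
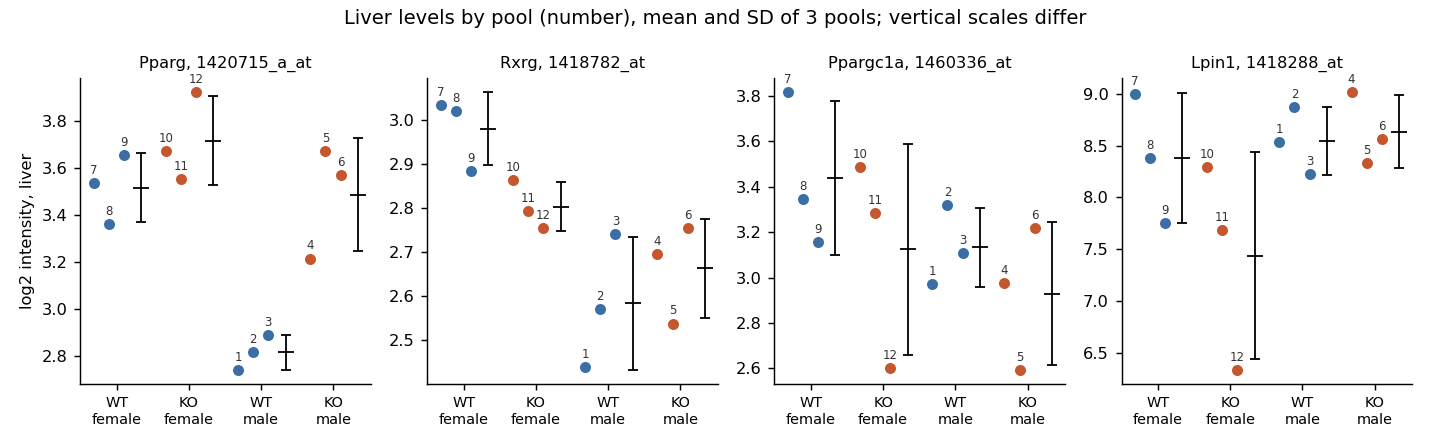
Liver log2 intensity of Pparg, Rxrg, Ppargc1a and Lpin1, 1 probe set each, by group, with points for pools named by number and bars for the mean and SD of 3 pools. The vertical scales differ between panels. WT males are lowest in Pparg (2.74 to 2.89), WT females are highest in Rxrg, and KO female pool 12 is lowest in Lpin1 at 6.34.

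Ranks within arrays show where each probe set stood in each tissue, as a description with no test, and they do not order the genes by amount because probe sets bind with different strength. PGC-1α stood higher in heart than in liver in all 5 probe sets, with median percentiles of 97.4 against 75.4 for 1460336_at and 84.0 against 23.5 for 1434099_at. Rxrg had 90.5 against 65.6 and Ppargc1b 96.0 against 84.6. Rxra stood higher in liver, with 95.8 against 88.8 by 1454773_at and 87.3 against 64.9 by 1425762_a_at. Lpin1 stood near the top in both, at 97.5 in liver and 96.5 in heart by 1418288_at. Pparg had 79.5 in liver and 76.3 in heart.

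**Figure D5:**
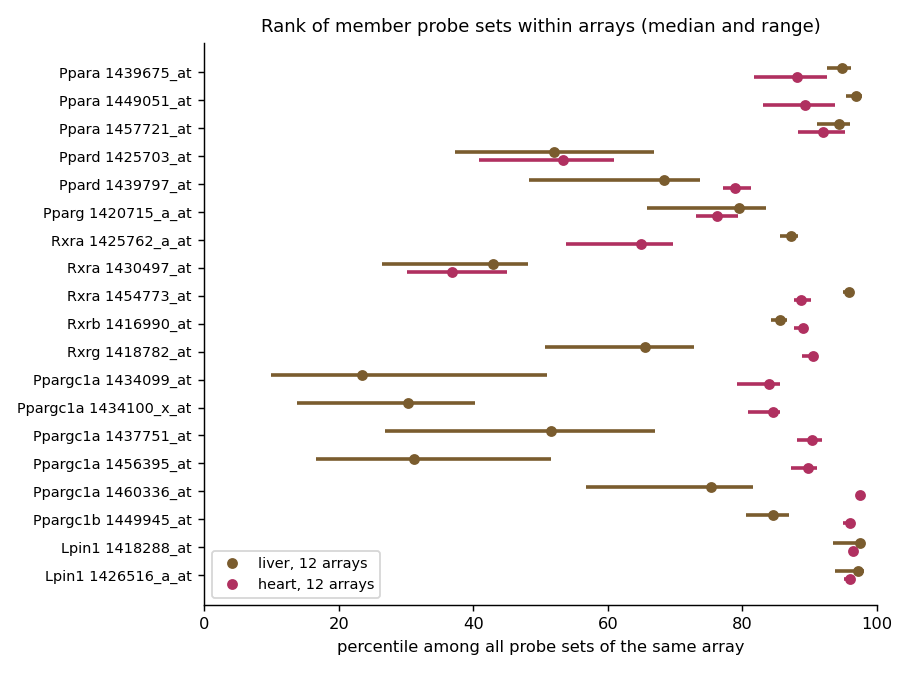
Percentile of each of the 19 single-gene probe sets among all probe sets of the same array, with the median as a point and the range over the 12 arrays of a tissue as a line. Ppargc1a and Rxrg rank higher in heart and Rxra 1454773_at higher in liver, while Lpin1 ranks above the 93rd percentile on all 24 arrays.

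Many of the genes that PPARα is known to drive were lower in KO, and the median of their list was below 0 in both tissues. Each gene was represented by its brightest single-gene probe set. Over all 18193 genes so measured, 0.412%, 0.407%, 0.368% and 0.319% were lower in female liver, male liver, female heart and male heart, and 0.319% and 0.148% were higher in female and male liver. Of 43 measured PPAR target genes, 19 were lower and 1 higher in female liver, 17 lower and 1 higher in male liver, 16 lower in female heart and 14 lower in male heart. The list medians were −0.57, −0.32, −0.21 and −0.22, beside medians of all genes between −0.01 and 0.01. Plin5, a coat protein of lipid droplets, fell by 3.04 in female and by 3.09 in male heart. Slc25a20, the carnitine carrier of the mitochondrial membrane, fell by 2.09 in female and by 1.85 in male liver. The gene that rose in both sexes of liver was Pdk4, a kinase that shuts off pyruvate dehydrogenase, by 1.12 and 0.90. Its WT livers, at 2.49 ± 0.16 in females and 2.24 ± 0.18 in males, lay at or near the array medians, so these values are against a signal not shown to be above background. In male liver the count of passing targets, 18 in all, was 11 without pool 1 and 10 without pool 5. Without heart pools 4 and 10 together, 12 targets passed in female and 14 in male heart.

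No gene passed in 5 lists of partners in any of the 4 comparisons of KO with WT. They were 22 coactivators of nuclear receptors, 11 corepressors, 15 other receptors that pair with RXR, 20 transcription factors that work with PGC-1 and 18 clock genes. In limma, between 0 and 5 genes of a list had an unadjusted p under 0.05 in a comparison. The most, 5 of 20, was among the PGC-1 partners in male liver, where 3834 of all 45037 probe sets had such a p. Median differences of these lists lay between −0.11 and 0.09 in all comparisons by sex.

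Some genes of glycerolipid synthesis, the pathway in which lipin 1 acts as an enzyme, were lower in KO heart. None of 17 passed in liver in limma, where 3 in females and 4 in males had an unadjusted p under 0.05. In female heart 3 fell: Gpam, which makes the first acylation of glycerol phosphate, by 0.93, Agpat2, the next acyltransferase, by 0.79, and Dgat2, which makes triglyceride, by 0.79. In male heart Gpam fell by 0.94 and Plpp1, a lipid phosphate phosphatase, by 0.59. With each pool left out in turn, 2 to 3 of the 17 passed in each sex of heart. The summed white adipocyte signal was 214 to 325 in WT and 74.3 to 184 in KO female hearts, which did not overlap. In male hearts it was 113 to 249 in WT and 81.9 to 369 in KO. The part of adipocytes in these falls was not tested. Liver minus heart, the KO effect on Dgat2 differed by 0.79 in females and by 0.66 in males (adjusted p = 0.00666 and 0.0451 in limma). The paralogs of Lpin1 did not pass: Lpin2 was −0.57 in female liver (adjusted p = 0.54) and Lpin3 was −0.21 in female heart (adjusted p = 0.742). Among 17 genes that carry or release ligands, Fabp3, the fatty acid binding protein of heart muscle, passed in male heart, where it fell by 0.46 (adjusted p = 0.0122) from 12.5 ± 0.03 to 12.1 ± 0.09. No gene of that list passed in male heart without pool 1, 2, 5 or 6, and 1 passed in female heart without pool 9. None of the 17 passed in liver (3 in females and 1 in males with an unadjusted p under 0.05) or in female heart (5). With the sexes averaged, where 0.533% of genes were lower and 0.242% higher in heart, Fabp3 fell by 0.39 and the triglyceride lipase Pnpla2 by 0.33 in heart, and Fabp4, the fatty acid binding protein of adipocytes and endothelium, rose by 0.40.

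The genes whose group means ran most like those of Ppara, by the root mean square distance over 8 group means centred within each tissue, were Acadvl (0.143), Dhrs4 (0.166) and Cpt2 (0.172), where the median over all genes was 0.63. Acadvl differed by −1.28, −1.23, −1.06 and −1.11 in female liver, male liver, female heart and male heart, close to the −1.05, −1.12, −1.53 and −1.25 of Ppara. Those most like Lpin1 were Bcl6 (0.103), Dnase2b (0.109) and Ces1e (0.148), against a median of 0.346. Bcl6 differed by −0.62 in female liver and by −0.04 in male liver, and all 3 were measured over the same pools as Lpin1, pool 12 included.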

How the data were processed

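RNA of 24 pools was measured on Affymetrix mouse genome arrays. The deposited values are log2 intensities that the authors made with robust multi-array averaging (RMA), per the submitters' processing notes, while the sources used here give neither its version nor a genome build. Sorted array values differed on average by 0.0185 within liver, 0.0164 within heart and 0.658 between the tissues. Of 45101 probe sets, 64 controls were left out, and genes were named from a supplied probe table (34945 probe sets with 1 gene, 932 with several, 9160 with none). No filter on dim probe sets was applied.

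Groups were compared in limma 3.58.1 (R 4.3.3) (lmFit, eBayes) with 1 mean per group over the 12 arrays of a tissue, or of all 24 for tissue by genotype, with two-sided tests and Benjamini-Hochberg adjustment over all 45037 probe sets. In all, 12 comparisons were made. The members and lists were chosen with earlier results of these data known. Named genes were all members, up to 4 per list and comparison with the largest passing difference, and 3 per member by likeness where its group means spanned at least 1 log2 unit in a tissue. Single relations across pools were tested with 100000 two-sided permutations over the 12 pools of a tissue. Group means were taken out for pairs of members and left in for relations with markers. The fit was tested on simulated data. Some genes of the lists are not reported here. Alternatives were other sets of arrays in the fit, array weights, a variance with trend and robust fit, quantile normalization once more, array medians set equal, only the brighter probe sets, 1 probe set a gene, a block for pool number and leaving out every pool once. The 12 pools of a tissue were of separate mice, and whether livers and hearts with the same number came from the same mice was not given.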

Additional observations from a re-analysis of the deposited data

Results flagged for a closer look

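For no member of the receptor and coactivator group did the KO effect differ between sexes or tissues by the test of that difference. Genes of the lists described beside them did, and each is given as the difference of 2 KO effects in limma, adjusted over all probe sets. In liver, the KO effect was more negative in females than in males for Vnn1, by −3.52 (adjusted p = 1.26e-06, from −4.77 in females and −1.25 in males), and for Retsat, by −1.94 (adjusted p = 0.00167, from −3.07 and −1.12). KO livers read 2.34 ± 0.08 in females and 2.27 ± 0.16 in males for Vnn1, under the array medians, and WT livers 7.11 ± 0.21 and 3.51 ± 0.17. The Vnn1 value is thus nearly the difference between the WT sexes, and the WT males had little room to fall. Retsat stayed well above the array medians in all groups.

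Liver minus heart in females, the KO effects differed by −5.82 for Cyp4a14, −4.75 for Vnn1, −3.12 for Decr2 and −1.997 for Retsat, which were more negative in liver. In WT female heart Cyp4a14 (2.41 ± 0.07) and Vnn1 (2.53 ± 0.04) lay under the heart array medians and Decr2 (3.37 ± 0.13) just above them, so a fall of these 3 in heart could hardly have been seen. The KO effects differed by 1.04 for Decr1, 1.02 for Gpam, 0.82 for Agpat2 and 0.79 for Dgat2, which were more negative in heart. In males the differences included −1.30 for Vnn1 and −3.01 for Decr2, whose WT male hearts also read low (2.57 ± 0.10 and 3.57 ± 0.03), −1.20 for Aldh3a2, 1.40 for Acot2, 1.18 for Decr1 and 0.66 for Dgat2. In all, 13 of 43 PPAR targets passed in females (10 more negative in liver) and 10 of 43 in males (6 more negative in liver). Of all probe sets, 0.4% passed in females and 0.271% in males. Other targets also lay under the heart array medians in WT female heart, among them Acaa1b (2.75 ± 0.15) and Slc27a2 (2.73 ± 0.12). The counts of effects more negative in liver may thus include genes with little heart signal to lose. Decr1, an auxiliary enzyme of fatty acid oxidation in mitochondria, had KO effects of −0.75 and −0.49 in female and male liver, and of −1.79 and −1.67 in the hearts. Decr2, its counterpart in peroxisomes, had effects of −3.13 and −3.30 in the livers, and of −0.01 and −0.29 in the hearts.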

How the results depend on the processing

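Of 1526 values recomputed for 98 results, none reversed, and 1462 kept their direction and their side of the threshold or, for counts, stayed within 1.5 times. Counts have no direction and could not reverse, and many were 0 in the main fit and stayed 0. The single probe sets among the results were those with an unadjusted p under 0.05 in limma, so these totals overstate how stable the values are. With 1 probe set a gene, which keeps 1 of the 3 Ppara probe sets, the members that passed were 1, 2 and 2 in female, male and averaged liver and 1, 1 and 1 in heart. With each pool left out in turn, the members that passed ran from 2 to 4 in male liver and from 0 to 2 between WT sexes in liver, where array weights gave 2. The PPAR targets that passed in male liver ran from 10 to 15. In female liver, array weights gave 1 PGC-1 partner and 1 clock gene, and the RXR partners ran from 0 to 1 with pools left out, as they did in averaged liver. The ligand genes that passed in liver were 1 in males with a trended variance, and 1 in the averaged sexes with a trended variance, array weights, quantile normalization or 1 probe set a gene, and ran from 0 to 1 with pools left out in females, males and both. In female heart they were 3, 2, 1 and 2 under these same 4 settings and 0 to 1 with pools left out. In male heart they were 0 with the compared arrays alone and 0 to 1 with pools left out, and in averaged heart 1 with all 24 arrays. The causes were not tested. Among the remaining member values, 272 of 3091 changed sign, the largest of them 0.24 in size in the main comparison, and none passed.

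The deviations of same-numbered liver and heart pools correlated between −0.178 and 0.106, and 1 of 12 was above 0.1. Each liver pool was compared with the 3 heart pools of the same sex and genotype. Of the 12 pools, 4 were best matched by their own number, and random matching would also give 4 on average. These values cannot decide whether same-numbered pools came from the same mice, since deviations in different tissues need not correlate even then. With the pool number as a replicate block, 0 members passed in tissue by genotype in either sex, as without it. Signal over background limits the liver values of Ppargc1a, Ppard and Rxra 1430497_at most, since 2 of 19 member probe sets lay under the array median on all livers and 5 on some.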
